A study of Mus musculus with 6 samples.

Results

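Most serpins are protease inhibitors. An inhibitory serpin carries an exposed reactive centre loop that a protease takes for a substrate. The protease is trapped on the inhibitor when it cuts the loop, so the letters of the loop decide which protease is caught. Clade A serpins are mostly plasma proteins made by hepatocytes. In mice the single human gene for alpha-1-antitrypsin, the main plasma inhibitor of neutrophil elastase, is represented by a row of near-identical copies named Serpina1a to Serpina1e, and human alpha-1-antichymotrypsin by a second row, the Serpina3 genes.

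The genes described are 10 members of this clade, Serpina1a, Serpina1b, Serpina1c, Serpina1d, Serpina1e, Serpina3k, Serpina3m, Serpina3n, Serpina6 and Serpina12, found by name in a table of 54532 genes. They were chosen by a measured value, the lower level of Serpina1e in Trem2-deficient liver, with its relatives added by name. Their values in that contrast are therefore given as a description. Calls of members by tests run over all genes are given beside the background of all genes, and nothing is read from them. Whole liver RNA of male mice was sequenced in 6 libraries: 3 labelled KO (Trem2-deficient, replicates 4, 5 and 6) and 3 labelled WT (littermate wild type, replicates 1, 2 and 3). Both groups were put on a high-fat diet at 8 weeks of age and kept on it for 8 weeks, so no group on a normal diet stands beside them. The allele, the strain and whether each library came from its own mouse are not given in the sources used here; if some did not, a p-value covers no more than the technical spread of these libraries.

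Libraries held between 11591021 and 20399361 counts. Trem2 is the gene in which the KO-labelled mice are described as deficient. It had 9, 6 and 5 counts in the KO-labelled libraries and 7, 26 and 26 counts in the WT-labelled ones. WT replicate 1 thus lay within the KO-labelled range, and Trem2 did not separate the labels. The label of WT replicate 1 also carries a suffix, N, that no other library has and that is not explained. All directions below are between libraries as labelled. Of 11 hepatocyte marker names 10 were found in the table, and all 10 were tested. Of these 2 were fitted higher and 8 lower in KO-labelled livers, with a median log2 fold change of −0.35. Their summed level, most of it Alb, was 78414 to 84708 CPM (counts per 1000000 counts) in KO-labelled libraries and 77468 to 116695 CPM in WT-labelled ones. The mitochondrial genome gave 28%, 9.08% and 19.8% of the counts in KO replicates 4, 5 and 6, and 8.16%, 12.7% and 10.2% in WT replicates 1, 2 and 3. All 9 Kupffer cell and macrophage markers were fitted higher in KO-labelled livers, at a summed 177 to 266 CPM against 106 to 151 CPM in WT-labelled livers. Endothelial markers (7 of 7 fitted higher) summed to 223 to 321 CPM in KO-labelled and 151 to 174 CPM in WT-labelled livers, and stellate cell markers (5 of 7 fitted higher) to 142 to 286 CPM in KO-labelled and 86.9 to 116 CPM in WT-labelled livers. The part of these differences in the values below was not tested, and in whole tissue fewer cells of a type cannot be told apart from less RNA per cell.

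The Serpina1 copies differ from one another in the loop. The following 60 coding bases end where the serpin family signature begins and hold the reactive centre loop; they are shown because this is the stretch that meets the protease. They are from GENCODE vM21 transcripts, 5′ to 3′, on the minus strand of mm10 (GRCm38), and capitals mark positions at which the 5 copies do not all have the same letter.
Serpina1a, chr12:103853771-103853830: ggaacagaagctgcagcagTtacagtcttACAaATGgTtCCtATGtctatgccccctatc
Serpina1b, chr12:103728338-103728397: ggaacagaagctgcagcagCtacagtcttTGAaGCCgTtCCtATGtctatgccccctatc
Serpina1c, chr12:103895108-103895167: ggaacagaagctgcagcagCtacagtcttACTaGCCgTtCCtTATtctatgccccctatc
Serpina1d, chr12:103763776-103763835: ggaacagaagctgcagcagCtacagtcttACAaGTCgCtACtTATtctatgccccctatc
Serpina1e, chr12:103947114-103947173: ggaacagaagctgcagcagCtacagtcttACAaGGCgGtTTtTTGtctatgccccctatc

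In this block 13 of 60 positions varied among the copies (21.7%), against 86 of 1239 positions (6.94%) over the whole coding sequence. Of the 1180 windows of this length along the coding sequence, 5.93% held as many variable positions or more. These windows overlap one another and include the block itself and windows shifted from it by a few bases. The 5.93% is therefore not a share of separate stretches elsewhere in the gene. Serpina1e had 4 letters here that no other copy had, and 24 over its whole coding sequence, the most of the 5. The coding sequences were 96.3% to 98.5% identical between copies, with Serpina1a and Serpina1c the closest pair. Serpina3k and Serpina3m were 91% identical, Serpina3k and Serpina3n 82.7%, and Serpina1 and Serpina3 genes 56.2% to 58.8%.

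This likeness bears on the counts, since a read that fits several copies cannot be given to one. Of all stretches of 100 bases in the coding sequence, 80.9% of those of Serpina1e were found in no other gene's transcripts, against 35.7% for Serpina1a, 70% for Serpina1b, 26.1% for Serpina1c and 66.7% for Serpina1d. The share was 91.8% for both Serpina3k and Serpina3m, 99.7% for Serpina3n and 100% for Serpina6 and Serpina12. Levels of Serpina1a and Serpina1c are the most exposed to how shared reads were counted, and the values of all 5 copies carry that uncertainty. Serpina1c also shares 429 exon bases with B430119L08Rik on the opposite strand, and Serpina3k and Serpina3m share 60 exon bases on the same strand, and the rule for assigning reads there was not stated.

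The copies also have a stretch before the RefSeq start site in common. The next block, shown because the copies have such unlike levels behind it, is the stretch nearest the start sites that aligned without a gap in all 5 copies (RefSeq promoters, GRCm38.p6, minus strand, 121 bases each). It lies 183 to 63 bases before the RefSeq start of Serpina1e and nearer the start in the other copies, ending 1 base before it in Serpina1d and 12 in Serpina1c. The deposited genes of Serpina1e and Serpina1b run further, to 103958975 and 103830373. By those positions the block lies inside these genes and not before their start. Being chosen for its alignment, it says nothing of the rest of the promoters; capitals again mark positions that vary among the copies.
Serpina1a, chr12:103863625-103863745: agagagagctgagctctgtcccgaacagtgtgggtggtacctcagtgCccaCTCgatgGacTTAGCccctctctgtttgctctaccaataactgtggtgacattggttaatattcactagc
Serpina1b, chr12:103738200-103738320: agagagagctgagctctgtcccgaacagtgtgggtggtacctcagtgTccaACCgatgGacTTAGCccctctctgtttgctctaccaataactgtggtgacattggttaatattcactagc
Serpina1c, chr12:103904962-103905082: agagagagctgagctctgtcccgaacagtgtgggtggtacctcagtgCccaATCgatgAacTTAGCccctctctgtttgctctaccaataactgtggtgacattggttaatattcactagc
Serpina1d, chr12:103773634-103773754: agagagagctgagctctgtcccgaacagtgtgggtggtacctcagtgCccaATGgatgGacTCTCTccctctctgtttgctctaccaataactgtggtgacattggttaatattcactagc
Serpina1e, chr12:103956960-103957080: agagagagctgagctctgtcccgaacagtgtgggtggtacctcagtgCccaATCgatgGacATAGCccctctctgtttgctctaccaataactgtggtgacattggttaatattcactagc

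Of the 121 positions 10 varied, all between a constant run on the left and a constant run on the right that holds the letters GTTAAT, the core read by the hepatocyte factor HNF1. Serpina1e had 1 letter of its own in the block, as had Serpina1a and Serpina1c, while Serpina1b had 2 and Serpina1d 5. RefSeq promoters were at hand for 7 of the 10 members, the 5 Serpina1 copies, Serpina3n and Serpina12. Searched on both strands, GTTAAT was present in the 5 Serpina1 promoters and not in the other 2, and in 7.1% of all 32851 promoters. TGTTTNC, a forkhead (FOXA) core, was likewise in the 5 Serpina1 promoters, and in 20.5% of all. TTGCNNAA, a C/EBP core, was in those of Serpina1a, Serpina1b, Serpina1d, Serpina1e and Serpina12, and in 10.8% of all. TTCNNNGAA, the STAT site, was in 0 of the 7 and in 8.3% of all. These are matches of letters in a window and say nothing of binding.

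The 10 members lie within 768 kb of chromosome 12 (103646630 to 104414329), Serpina6, the 5 Serpina1 copies and Serpina12 on the minus strand and the 3 Serpina3 genes on the plus strand. All 10 passed the filter on low counts, as did 13693 genes in all, and together they took 1.28%, 1.91% and 1.42% of the counts in KO replicates 4, 5 and 6, and 3.74%, 2.05% and 3.12% in WT replicates 1, 2 and 3.

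Serpina1e (ENSMUSG00000072849, chromosome 12, 103946931 to 103958975) was lower in every KO-labelled library than in any WT-labelled one. It stood at 273, 563 and 130 CPM in KO replicates 4, 5 and 6, against 10352, 1165 and 6674 CPM in WT replicates 1, 2 and 3. The groups did not overlap, yet the lowest WT-labelled library was only 2.07 times the highest KO-labelled one, because WT replicate 2 was 8.88 and 5.73 times below the other WT-labelled libraries. Group means were 322 ± 221 CPM in KO-labelled livers and 6064 ± 4624 CPM in WT-labelled livers (SD, n = 3 each). The fitted log2 fold change, KO over WT, was −4.24 (SE 0.88), 18.8-fold lower. Only 3 of the 13693 genes were fitted further below 0. With each library left out in turn the log2 fold change lay between −4.92 (without KO replicate 5) and −3.61 (without WT replicate 1), and without WT replicate 2 it was −4.73.

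**Figure D1:**
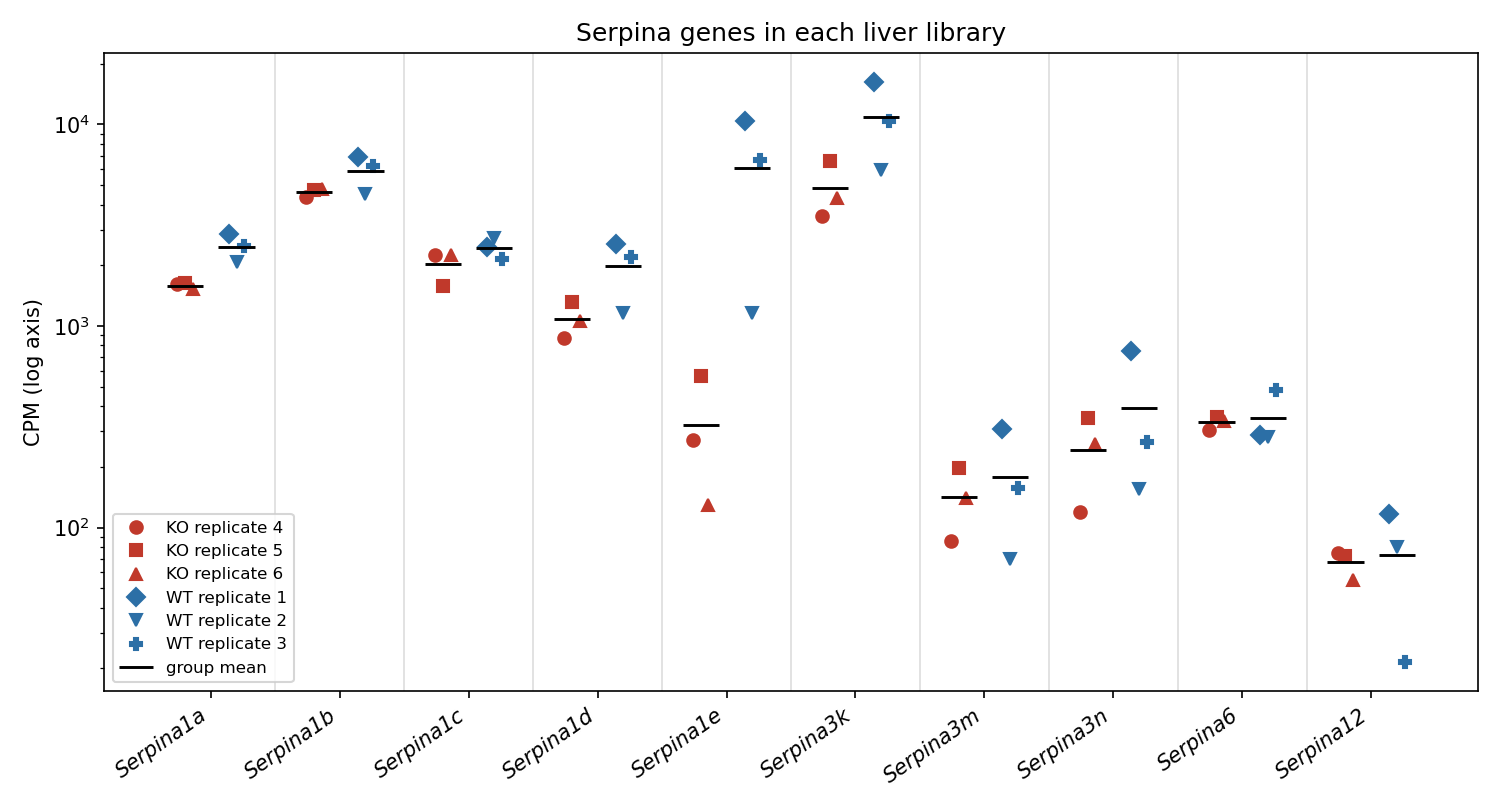
CPM of the 10 Serpina genes in each library on a log axis, with KO-labelled libraries in red on the left of each pair, WT-labelled libraries in blue on the right and group means as bars. Serpina1e lies between 130 and 563 CPM in KO-labelled libraries and between 1165 and 10352 CPM in WT-labelled ones, while for most other members the groups overlap.

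The spread of Serpina1e within each group was larger than that of most genes. The SD of its log2 CPM was 1.06 over the KO-labelled and 1.67 over the WT-labelled libraries, where the median gene with a mean of at least 10 CPM had 0.29 and 0.30. Of 7238 such genes, 191 (2.64%) had a larger SD in the KO-labelled group and 37 (0.511%) in the WT-labelled group. Serpina1a had SDs of 0.05 and 0.23. The order of the WT-labelled libraries for Serpina1e, replicate 1 above 3 above 2, was also that of 8 of the 10 hepatocyte markers, all but Alb and Cyp3a11, while none of the 10 had its order in the KO-labelled libraries. The markers fitted lowest were Cps1 (urea cycle), at 198, 724 and 363 CPM in KO replicates 4, 5 and 6 and 2198, 574 and 1408 CPM in WT replicates 1, 2 and 3, and Ahsg (the plasma protein fetuin-A), at 2279, 5351 and 3121 CPM in KO replicates and 9669, 3294 and 7469 CPM in WT replicates. Others differed less or went the other way, with log2 fold changes of −0.07 for Apob, 0.06 for Ttr and 0.59 for Cyp3a11. These markers are named after their values were seen, and their part in the Serpina1e values was not tested.

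Among the other Serpina1 copies only Serpina1a had groups that did not overlap. It stood at 1615, 1625 and 1520 CPM in KO replicates 4, 5 and 6, against 2844, 2073 and 2485 CPM in WT replicates 1, 2 and 3, with a log2 fold change of −0.64 (SE 0.24). The 3 KO-labelled values lay close together, and the lowest WT-labelled one was 1.28 times the highest of them. Serpina1d, at 872, 1314 and 1055 CPM in KO replicates and 2556, 1164 and 2200 CPM in WT replicates, had a log2 fold change of −0.87 (SE 0.35), and WT replicate 2 lay inside its KO-labelled range. Serpina1b, the most counted copy in KO-labelled livers, stood at 4363, 4735 and 4768 CPM there and at 6893, 4515 and 6184 CPM in WT replicates 1, 2 and 3 (log2 −0.34, SE 0.28). Here too WT replicate 2 fell among the KO-labelled libraries and the other 2 WT-labelled libraries lay above all of them. Serpina1c did not follow this order, with 2239, 1570 and 2257 CPM in KO replicates 4, 5 and 6 and 2452, 2724 and 2151 CPM in WT replicates 1, 2 and 3 (log2 −0.27, SE 0.27), so that WT replicate 2 was its highest library.

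A sum over the 5 copies does not depend on how reads were divided among them, though reads discarded for fitting several copies would be missing from it. Summed Serpina1 stood at 9362, 9807 and 9730 CPM in KO replicates 4, 5 and 6 and at 25098, 11642 and 19694 CPM in WT replicates 1, 2 and 3. The means were 9633 ± 238 CPM and 18811 ± 6771 CPM (SD, n = 3 each), a log2 ratio of −0.97. Without Serpina1e the sums were 9089, 9244 and 9600 CPM in KO replicates and 14746, 10477 and 13020 CPM in WT replicates, a log2 ratio of the means of −0.45. Serpina1e made up 2.92%, 5.74% and 1.33% of the Serpina1 counts in KO replicates 4, 5 and 6, against 41.2%, 10% and 33.9% in WT replicates 1, 2 and 3. The mean share was 25.1 percentage points lower in KO-labelled livers. Serpina1b held the largest share in all 3 KO-labelled libraries (46.6%, 48.3% and 49%) and in WT replicate 2 (38.8%), and Serpina1e in WT replicates 1 and 3. Within a library, Serpina1e had 0.169, 0.346 and 0.0854 counts per Serpina1a count in KO replicates 4, 5 and 6, and 3.64, 0.562 and 2.69 in WT replicates 1, 2 and 3. By the same measure Serpina1a to Serpina1b lay between 0.319 and 0.37 in the KO-labelled and between 0.402 and 0.459 in the WT-labelled libraries.

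**Figure D2:**
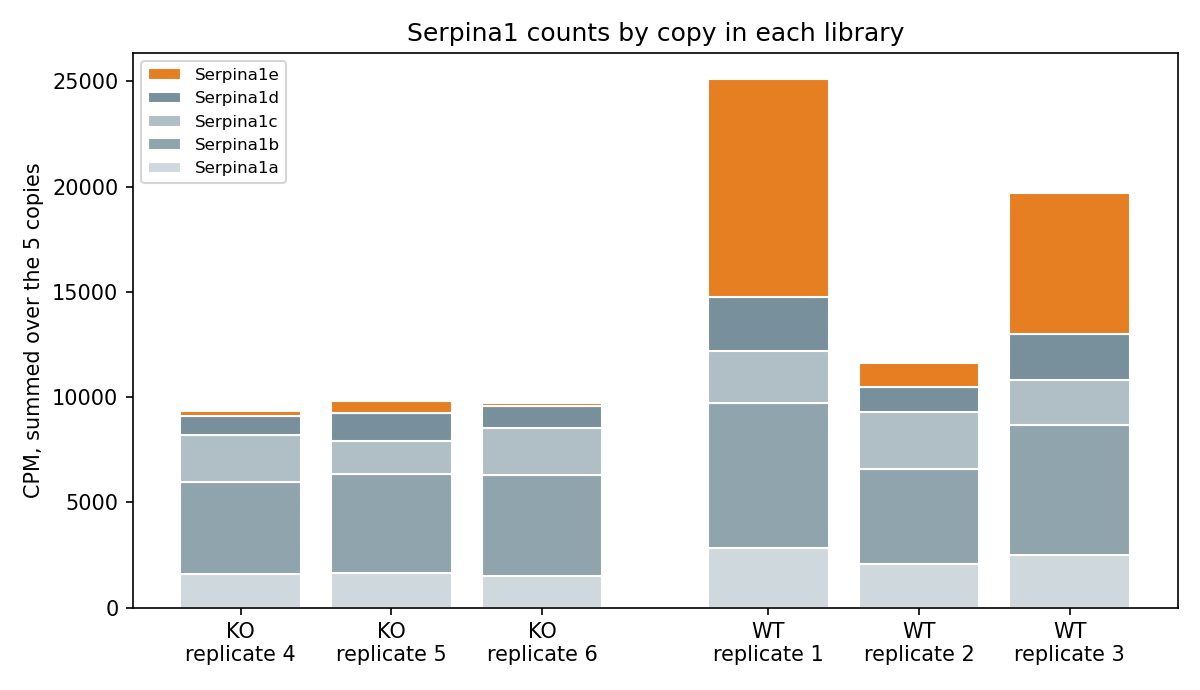
CPM summed over the 5 Serpina1 copies in each library, KO-labelled on the left and WT-labelled on the right, with each copy as a block of the bar. Serpina1e, in orange, is 1.33% to 5.74% of the bar in KO-labelled libraries and 10% to 41.2% in WT-labelled ones.

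Of the Serpina3 genes, Serpina3k had the highest level and the widest difference. Serpina3k, a plasma serpin known as a binder of tissue kallikrein, stood at 3522, 6597 and 4326 CPM in KO replicates 4, 5 and 6 and at 16220, 5944 and 10366 CPM in WT replicates 1, 2 and 3. WT replicate 2 again lay inside the KO-labelled range. The log2 fold change was −1.17 (SE 0.44), and it was −0.76 without WT replicate 1 and −1.47 without KO replicate 5.

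For Serpina3n and Serpina3m the groups overlapped widely. Serpina3n, an acute phase protein that inhibits cathepsin G and granzyme B, stood at 120, 350 and 259 CPM in KO replicates 4, 5 and 6 and at 749, 156 and 265 CPM in WT replicates 1, 2 and 3 (log2 −0.68, SE 0.61). Only WT replicate 1 lay above the KO-labelled libraries, and without it the log2 fold change was 0.21. Serpina3m stood at 86, 198 and 140 CPM in KO replicates and at 309, 69.7 and 158 CPM in WT replicates (log2 −0.34, SE 0.53), with a log2 fold change of 0.31 when WT replicate 1 was left out. For both genes KO replicate 5 was the highest KO-labelled library and WT replicate 1 the highest of all.

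Serpina6 and Serpina12 had the smallest differences. Serpina6, the corticosteroid-binding globulin that carries glucocorticoids in plasma, stood at 305, 355 and 336 CPM in KO replicates 4, 5 and 6 and at 288, 280 and 481 CPM in WT replicates 1, 2 and 3 (log2 −0.07, SE 0.27). Without WT replicate 3, its highest library, the log2 fold change was 0.19. Serpina12, the adipokine vaspin and an inhibitor of kallikrein 7, stood at 75.1, 71.9 and 55 CPM in KO replicates and at 116, 80 and 21.6 CPM in WT replicates (log2 −0.11, SE 0.52). Its KO-labelled values all lay between the WT-labelled extremes, and leaving out WT replicate 1 gave 0.41, WT replicate 3 −0.57 and KO replicate 6 0.01. The adipocyte gene Adipoq was at 0.182, 5.79 and 0 CPM in KO replicates 4, 5 and 6 and at most 0.0623 CPM in WT-labelled libraries. Lep, Plin1 and Retn were likewise highest in KO replicate 5, whereas Cfd, also listed as an adipocyte marker, was highest in KO replicate 4. The part of adipocyte RNA in the Serpina12 values was not tested.

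**Figure D3:**
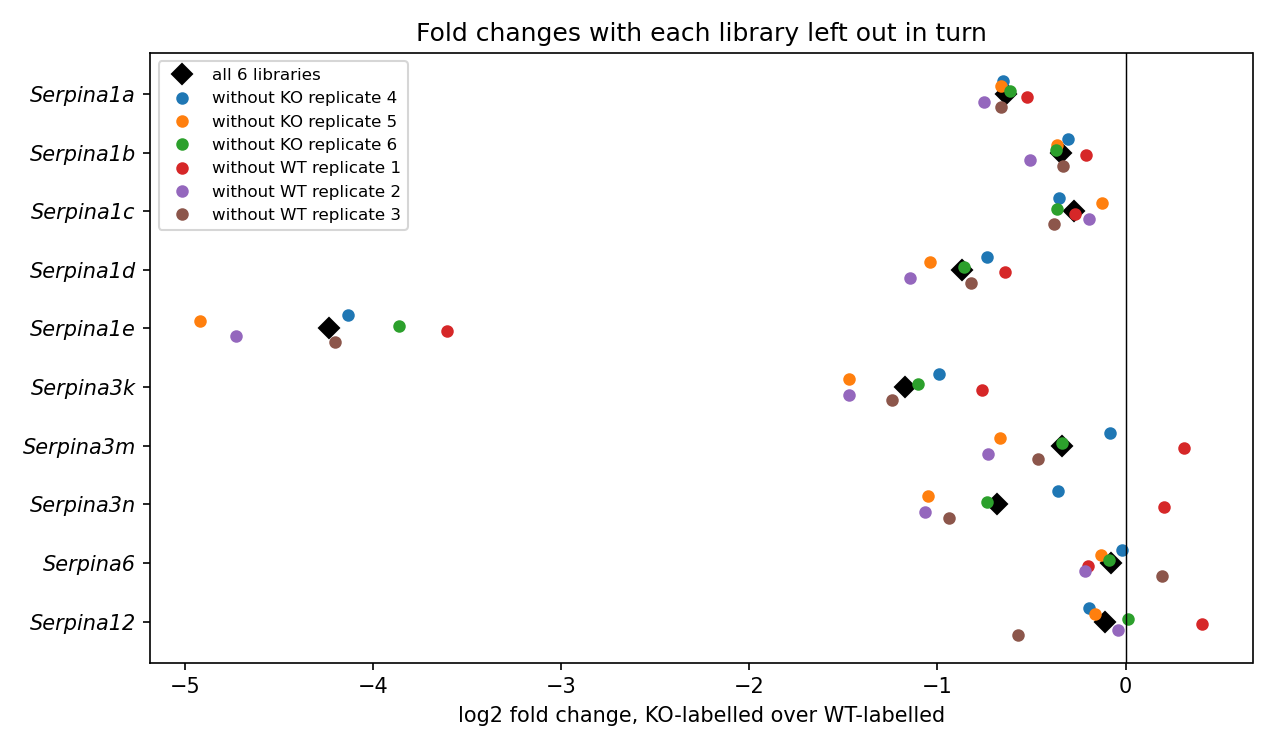
Log2 fold changes of the 10 genes, KO-labelled over WT-labelled, from all 6 libraries (diamonds) and with each library left out in turn (coloured points). Serpina1e stays between −4.92 and −3.61, while Serpina3m, Serpina3n, Serpina6 and Serpina12 pass 0 when WT replicate 1 or 3 is left out (Serpina12 also without KO replicate 6, at 0.01).

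Set against all genes, edgeR's quasi-likelihood test called 0 of the 10 members at an adjusted p under 0.05. It called 2 of 13693 genes (0.0146%), both higher in KO-labelled livers. At an unadjusted p under 0.05 there were 4 members, Serpina1a, Serpina1d, Serpina1e and Serpina3k, all lower, in a background of 8.58% of all genes at that level and 3.21% lower. DESeq2 called Serpina1e alone among the members, in a background of 1.29% of genes called and 0.468% called lower, and limma-voom called 0 members and 0.0073% of all genes. Groups did not overlap, with KO-labelled values lower, for 2 of the 10 members, Serpina1a and Serpina1e, and for 5.73% of all genes. All 10 members were fitted lower, as were 50.9% of all tested genes and 58.1% of those with a mean of at least 10 CPM. Their median log2 fold change was −0.49, that of the 10 hepatocyte markers −0.35 and that of all genes −0.01. Because these members were picked in this contrast, nothing is read from those counts.

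**Figure D4:**
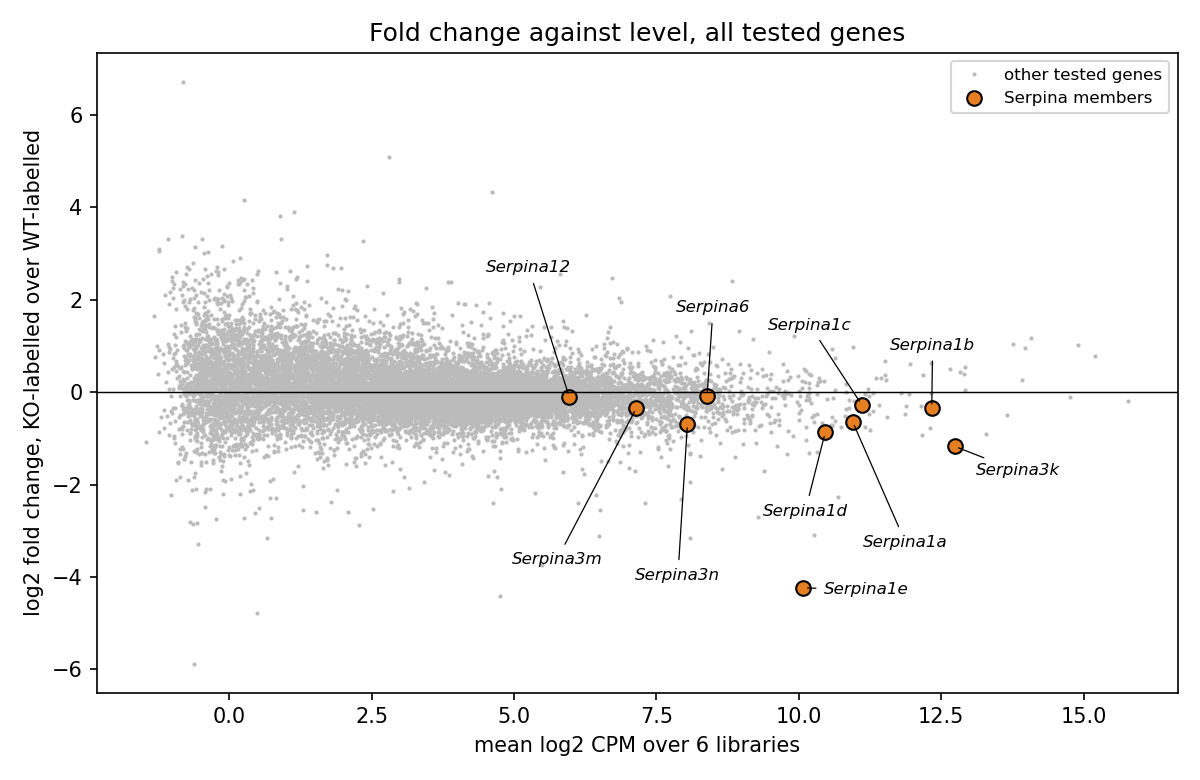
Log2 fold change, KO-labelled over WT-labelled, against mean log2 CPM over the 6 libraries for 13693 tested genes, with the 10 Serpina genes in orange. Serpina1e lies at −4.24 and the other 9 members between −1.17 and −0.07.

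Per base of transcript, Serpina3k was the most abundant member in both groups, and the place of Serpina1e differed most. Levels between genes are given as CPM per kilobase of the deposited gene length. That length was not corrected for stretches shared between genes. The places of the Serpina1 copies, among themselves and against Serpina3k, therefore carry the uncertainty of shared reads. In KO-labelled livers the order was Serpina3k (2341 ± 775), Serpina1b (1914 ± 93.3), Serpina1c (1486 ± 288), Serpina1a (866 ± 31.7), Serpina1d (775 ± 159), Serpina1e (199 ± 136), Serpina6 (189 ± 14.3), Serpina3n (118 ± 56.4), Serpina3m (82.2 ± 32.6) and Serpina12 (18.2 ± 2.93) CPM per kilobase (SD, n = 3). There the ranges of Serpina3k and Serpina1b, of Serpina1a and Serpina1d, of Serpina1e and Serpina6, and of Serpina3n and Serpina3m overlapped, so these neighbours did not differ beyond their spread between libraries. Within libraries, however, Serpina3n lay above Serpina3m in 3 of 3, while Serpina3k lay above Serpina1b and Serpina1a above Serpina1d in 2 of 3, and Serpina1e above Serpina6 in 1 of 3. In WT-labelled livers Serpina3k (5271 ± 2506) was followed by Serpina1e (3750 ± 2859), Serpina1b (2428 ± 506), Serpina1c (1795 ± 211), Serpina1d (1416 ± 519), Serpina1a (1347 ± 211), Serpina6 (199 ± 64.5), Serpina3n (189 ± 153), Serpina3m (104 ± 70.5) and Serpina12 (19.7 ± 13) CPM per kilobase (SD, n = 3). All neighbours in that order overlapped except Serpina1a and Serpina6, and Serpina3m and Serpina12. Within the WT-labelled libraries Serpina3k lay above Serpina1e, and Serpina3n above Serpina3m, in 3 of 3, and each of the other overlapping neighbours kept the order in 2 of 3. By its mean Serpina1e thus stood in place 6 in KO-labelled livers and place 2 in WT-labelled ones.

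Of 16 tested clade A serpins on chromosome 12, 13 were fitted lower, the 10 members and Serpina10, Serpina9 and Serpina4-ps1, and 3 higher, Serpina11, Serpina3f and Serpina3g. Of 16 other clade A serpins in the list, all were in the table, 4 had 0 counts in every library and 7 could be tested, 4 of them fitted higher (1 of these, Serpina7, on the X chromosome), 3 lower and 0 called (lowest adjusted p 0.37, edgeR). Serpina11, the next gene, whose 3′ end lies 33.3 kb away, stood at 109, 48.5 and 87.3 CPM in KO replicates 4, 5 and 6 and at 81.6, 66.1 and 72.8 CPM in WT replicates 1, 2 and 3 (log2 0.15, SE 0.30). The gene after it, Serpina9, a serpin of germinal centre B cells in humans, was scarce, with 9, 11 and 6 counts in KO replicates and 27, 44 and 106 counts in WT replicates (log2 −2.51, SE 0.56). Serpina4-ps1, a pseudogene, stood at 95.3, 77.7 and 60.3 CPM in KO replicates and at 143, 409 and 178 CPM in WT replicates (log2 −1.65, SE 0.42, adjusted p = 0.4 in edgeR). Unlike Serpina1e it was highest in WT replicate 2. Serpina10, the inhibitor of factor Xa that works with protein Z, stood at 127 ± 38.8 CPM in KO-labelled and 228 ± 83.9 CPM in WT-labelled livers (SD, n = 3 each; log2 −0.84, SE 0.35).

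Of the rest, Serpina3f and Serpina3g, serpins of blood cells, had log2 fold changes of 0.97 (SE 0.40) and 0.83 (SE 0.29), and Serpina3g stood at 10.8, 8.80 and 16.9 CPM in KO replicates against 6.11, 7.68 and 6.66 CPM in WT replicates. Serpina7, the thyroxine-binding globulin, which lies on the X chromosome, had 0.29 (SE 0.37). Serpina3b, Serpina3c, Serpina3h, Serpina3i and Serpina5 had at most 15 counts in any library, and Serpina1f, Serpina3a, Serpina3j and Serpina16 had 0, which allows up to 3 counts in a library.

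**Figure D5:**
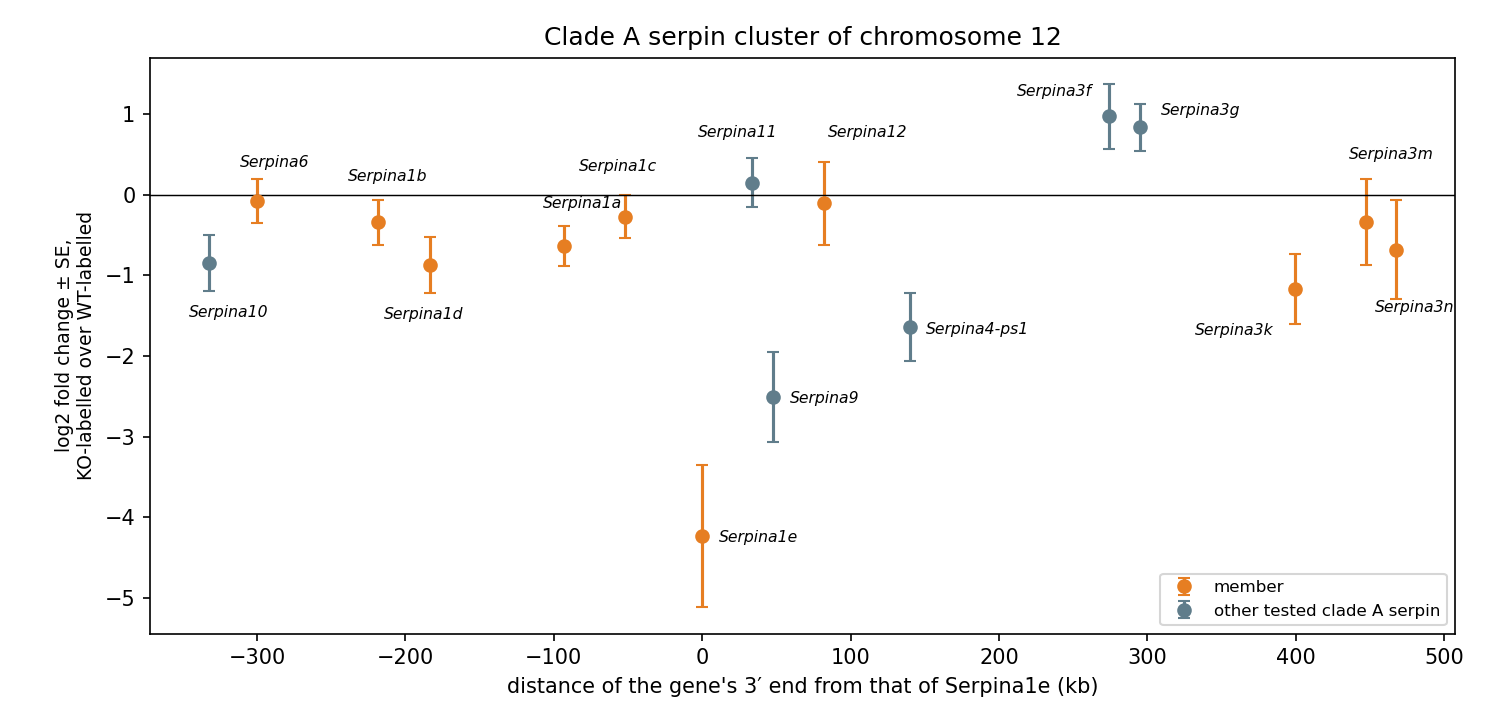
Log2 fold change with its SE, KO-labelled over WT-labelled, of the 16 tested clade A serpins of chromosome 12 against the distance of each gene's 3′ end from that of Serpina1e, in kb. Members are orange and other serpins grey; Serpina1e at −4.24 stands between Serpina1c at −0.27 and Serpina11 at 0.15.

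Of 24 further listed genes, serpins of other clades and angiotensinogen, 14 were tested. There 5 were fitted higher and 9 lower, with a median log2 fold change of −0.35 and 0 called (edgeR). The 4 most abundant, Serpinc1 (antithrombin), Agt (angiotensinogen, a serpin without inhibitory action), Serping1 (C1 inhibitor) and Serpinf2 (alpha-2-antiplasmin), had log2 fold changes of −0.35, 0.12, −0.52 and −0.58 with SEs of 0.26 to 0.35. Serping1, for example, averaged 499.5 ± 179 CPM in KO-labelled and 718 ± 212 CPM in WT-labelled livers (SD, n = 3 each). Their groups all overlapped. Among proteases that clade A serpins inhibit, 10 of 21 were tested, with 4 fitted higher, 6 lower, a median of −0.06 and 0 called. Neutrophil elastase, Elane, the classical target of alpha-1-antitrypsin, was at 0.243 to 0.636 CPM over all libraries and too scarce to test, and Klk7, the target of vaspin, had 0 counts. The 4 most abundant, Proc, F10, Tmprss6 and Klkb1, which act in coagulation, iron sensing and kinin release, had log2 fold changes between −0.29 and 0.22.

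Genes for folding, checking and exporting alpha-1-antitrypsin, 24 in number, were all tested. Of them 6 were fitted higher and 18 lower, with a median of −0.22 and 0 called, where edgeR called 0.0146% of all genes. The most abundant, P4hb, Calr, Pdia3 and Hsp90b1, which are chaperones and disulfide isomerases of the endoplasmic reticulum, had log2 fold changes of 0.10, −0.22, −0.42 and −0.48 (SE 0.26 to 0.33). Receptors that clear serpin-protease complexes and other plasma glycoproteins were all measured, with 2 of 9 fitted higher, 7 lower, a median of −0.23 and 0 called. Lrp1, the main receptor for such complexes, averaged 345 ± 71.3 CPM in KO-labelled and 581 ± 72.9 CPM in WT-labelled livers (SD, n = 3 each; log2 −0.75, SE 0.24, edgeR adjusted p = 0.46). Its groups did not overlap, with KO-labelled values lower, as was so for 5.73% of all genes. Asgr1 and Asgr2, subunits of the asialoglycoprotein receptor, had −0.21 and −0.69, with groups that overlapped.

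Of 18 transcription factors known from serpin promoters all were tested, 4 fitted higher, 14 lower, with a median of −0.21 and 0 called. Hnf4a and Cebpa, the hepatocyte factors with the highest levels, averaged 382 ± 39.6 and 359 ± 81.3 CPM in KO-labelled livers and 397 ± 63.8 and 455 ± 29.8 CPM in WT-labelled livers (SD, n = 3 each; log2 −0.06 and −0.34). Cebpb and Nr1h4, the bile acid receptor FXR, had −0.01 and 0.24. Of 27 genes of interleukin-6 signalling and the acute phase 24 were tested, 8 fitted higher, 16 lower, with a median of −0.31 and 0 called. The most abundant were the plasma proteins Hp, Hpx, Fgb and Fgg. Hp, Hpx and Fgb had log2 fold changes of −0.01, −0.30 and −0.83 (SE 0.26 to 0.44), and Fgg averaged 1179 ± 751 CPM in KO-labelled and 2364 ± 1527 CPM in WT-labelled livers (SD, n = 3 each). Of 16 genes of corticosteroid binding and response 15 were tested, 6 fitted higher, 9 lower, with a median of −0.21 and 0 called; Pck1, Tat, Hsd11b1 and Mt1 had −0.28, −0.75, −0.21 and 0.30 (SE 0.23 to 0.87). Each of these medians stands beside −0.01 for all tested genes and −0.06 for those with a mean of at least 10 CPM. The 0 called in each list stand beside 0.0146% of all tested genes called by edgeR, and nothing is read from them.

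The genes whose log2 CPM followed Serpina1e most closely over the 6 libraries, among 7032 other protein-coding genes with a mean of at least 10 CPM, were Metap1 (Pearson r 0.993), Slco2a1 (0.992), Nprl2 (0.99), F7 (0.985) and Nr3c1 (0.981). Metap1 is a methionine aminopeptidase, Slco2a1 a prostaglandin transporter, Nprl2 a regulator of nutrient sensing, F7 coagulation factor VII and Nr3c1 the glucocorticoid receptor. F7 stood at 56.4, 71 and 57.8 CPM in KO replicates 4, 5 and 6 and at 146, 85.3 and 121 CPM in WT replicates 1, 2 and 3, and Slco2a1 at 21.2, 22.7 and 17.7 CPM in the KO replicates and at 45.4, 25.9 and 42.6 CPM in the WT replicates. Their changes were smaller than that of Serpina1e, with log2 fold changes of −0.93 (SE 0.25) and −0.89 (SE 0.26). Those of Metap1, Nprl2 and Nr3c1 were smaller still, at −0.16 (SE 0.18), −0.38 (SE 0.20) and −0.40 (SE 0.18). For Serpina3n the closest were Tmed4 (0.994), Eloa (0.993), Galm (0.992), Gcdh (0.992) and Ibtk (0.991), all highest in WT replicate 1. These are rankings over 6 libraries that differ in group and depth, chosen as the highest of 7032, and carry no p. Among the members, Serpina1e had r of 0.976 with Serpina1a, 0.936 with Serpina3k, 0.93 with Serpina1d and 0.872 with Serpina1b, against 0.223 with Serpina1c, and Serpina3m and Serpina3n had 0.956 with each other.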

How the data were processed

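The authors' deposited table of whole read counts per gene was used with its gene names, positions and lengths; the deposited FPKM table served as an alternative only. The submitters' processing notes give mm10 as the build and list DESeq2 1.16.1, featureCounts 1.5.0-p3 and HISAT2 2.0.5, with no settings. The treatment of shared reads and of strand was not given in the sources used here. Library totals were 11591021 to 20399361 counts. Every pair of libraries differed beyond sampling noise (chi-square per degree of freedom at least 46.9), so no library's counts were deposited again under another name; this does not show that each came from its own mouse.

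Counts were fitted with edgeR 4.0.16 in R 4.3.3 over all genes kept by filterByExpr (13693), with TMM scaling and the quasi-likelihood test; p-values were adjusted by Benjamini-Hochberg, with a threshold of 0.05. Each SE was taken as the absolute log2 fold change divided by the root of its F statistic. CPM use TMM library sizes, and log2 CPM a prior count of 2. Counting intervals are not given. The floor of 3 counts covers counting error only. Members, lists and tests were chosen with earlier results of these data known. Named were all members, other clade A serpins, the 4 most abundant tested genes of each list, and the 5 genes most like Serpina1e and Serpina3n by Pearson r; 1 gene that the rule names is not reported here. The 10 members had the same positions in GENCODE vM21. Promoters were aligned with MAFFT 7.526 and coding sequences with Biopython 1.88. The alternatives were DESeq2 1.42.0, limma-voom (limma 3.58.1), other scalings and filters, limma on log2 FPKM (pseudocount 1 or 0.1), and each library left out in turn.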

Additional observations from a re-analysis of the deposited data

How the results depend on the processing

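The count of 2 genes called by edgeR became 1 with library size alone, 61 without a count filter, 176 with DESeq2 and 1 with limma-voom, and 0 to 1 with a library left out; the cause was not tested. Of the 10 members, 1 was called without a filter, where 61 genes were called among all with any count (29889 of the 54532 had none). With DESeq2 it was 1, Serpina1e, in a background of 1.29% of genes called. The members were picked in this contrast, so nothing is read from these calls. The Serpina1e log2 fold change lay between −4.27 and −4.00 over 10 other settings and between −4.92 and −3.61 with a library left out. The median of the 10 members lay between −0.52 and −0.42, and between −0.74 and −0.24 with a library left out. The Serpina1 sum lay between −1.22 (without WT replicate 2) and −0.70 (without WT replicate 1), and the difference in Serpina1e share between −34.2 and −18.6 percentage points; taken from FPKM it was −26.9. Of 186 fold change values under the alternatives, for single members, their median and the Serpina1 sum, 178 were below 0. All come from the same 6 libraries, so they are not independent of one another. Of the 8 above 0, 5 were of Serpina12 (0.18 with limma-voom, 0.12 and 0.15 with FPKM, and 2 with a library left out). The others were 1 each of Serpina3m, Serpina3n and Serpina6, with a library left out. No paired analysis was possible because the groups share no replicate number. Depth did not limit the members, each with at least 444 counts per library, but how reads shared by the Serpina1 copies were counted is not known.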
